A study of Mus musculus with 6 samples.

Results

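The keratin genes of mouse chromosomes 11 and 15 were examined for H3K4me1 in the embryonic whisker pad. They were chosen as all protein-coding genes of the GENCODE vM21 annotation whose symbol is Krt followed only by digits, which gave 49 of the 21755 protein-coding genes counted over the autosomes and the X chromosome. The type I cluster on chromosome 11 (GRCm38, 99232761 to 100269871, 1037 kb from Krt222 to Krt42) held 25 of them. The type II cluster on chromosome 15 (101347444 to 102032027, 685 kb from Krt80 to Krt18) held the other 24.

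The study dissociated whole whisker pads of wild-type B6/J2 mice at embryonic day 12 and applied CUT&Tag, in which an antibody guides a transposase to a histone mark and the released fragments are sequenced. H3K4me1, a single methyl group on lysine 4 of histone H3, is found at enhancers, both active and poised. There were 3 H3K4me1 samples, called replicates 1, 2 and 3 after the pad in their titles, and 3 IgG samples, which were not analysed here. The source field of replicates 2 and 3 reads adult kidney, so markers of several tissues were checked. Of 10 facial mesenchyme genes, 10 had a peak in each replicate. Surface ectoderm genes had one in 5, 6 and 4 of 10 cases and adult kidney genes in 3, 3 and 2 of 12 (25.0, 25.0 and 16.7%). Of all protein-coding genes, 24.9, 22.6 and 19.6% had a peak, so the kidney genes were near that level in each replicate.

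Keratins are the intermediate filament proteins of epithelial cells, and each filament is built from pairs of a type I and a type II chain. Simple keratins such as Krt8 with Krt18 are the first to appear and persist in single-layered epithelia. Krt5 with Krt14 mark the basal layer of stratified epithelium, Krt1 with Krt10 the layers above it, and the hair keratins the shaft of the mature hair. At the stage studied the pad has a thin surface ectoderm over a large mesenchyme. The pad was profiled as a whole, so a weak mark in many cells and a strong mark in few cells cannot be told apart.

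The clusters differed in replicates 1 and 2. The type I cluster had 0 peaks in any replicate, so Krt14, Krt15, Krt17, Krt19, Krt10 and all of its other keratins lacked one. In the type II cluster replicate 1 had 8 peaks, replicate 2 had 7 and replicate 3 had 0. Most lay at the simple keratins Krt7, Krt8 and Krt18, at the basal keratin Krt5, at Krt75 and at the hair keratin Krt82. The Krt75 peak of replicate 1 was also near Krt90. Another peak of replicate 1 lay between Krt1 and Krt77. Both replicates also had a peak between Krt78 and Krt8, within 5 kb of no keratin. A peak is a stretch kept in the deposited list of that replicate, which holds only the strongest 1% of signal blocks, and carries no read numbers. The study's methods state 1 common sequencing depth for the libraries, but the reads behind each value are not known here, so the mark may be there, below this limit, at genes without a peak.

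Sequences under peaks of the type II cluster are given first, since the plots and values that follow refer to them. The first lies between Krt8 and Krt18, in intergenic DNA at chr15:102025167-102025466, at -2.86 kb from the Krt18 start site (minus for upstream), where the highest pileup of replicates 1 and 2 fell on the same bases. The second lies upstream of Krt8 at chr15:102006590-102006889, in an intron of the noncoding gene Gm36026, where the highest pileups of the 2 replicates began 24 bp apart. The third, at chr15:101976804-101977103 between Krt78 and Krt8, holds the highest pileup of the strongest peak of the cluster in replicate 2. There the highest pileups of replicates 1 and 2 began 820 bp apart. All are on the plus strand of GRCm38, and capitals mark the bases with the highest pileup, of replicate 1 for the first and second and of replicate 2 for the third.
Krt18 upstream: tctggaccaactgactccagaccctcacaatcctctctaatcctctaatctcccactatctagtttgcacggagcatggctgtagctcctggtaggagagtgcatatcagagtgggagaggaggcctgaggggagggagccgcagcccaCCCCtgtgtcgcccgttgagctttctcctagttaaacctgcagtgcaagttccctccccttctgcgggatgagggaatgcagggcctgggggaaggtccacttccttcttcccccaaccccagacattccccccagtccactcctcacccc
Krt8 upstream: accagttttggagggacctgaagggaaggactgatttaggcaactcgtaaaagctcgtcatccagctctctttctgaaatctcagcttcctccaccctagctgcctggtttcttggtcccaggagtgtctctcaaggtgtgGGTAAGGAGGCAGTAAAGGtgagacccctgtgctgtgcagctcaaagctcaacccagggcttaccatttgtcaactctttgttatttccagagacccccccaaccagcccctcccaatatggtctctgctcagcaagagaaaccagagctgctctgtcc
Krt78 to Krt8: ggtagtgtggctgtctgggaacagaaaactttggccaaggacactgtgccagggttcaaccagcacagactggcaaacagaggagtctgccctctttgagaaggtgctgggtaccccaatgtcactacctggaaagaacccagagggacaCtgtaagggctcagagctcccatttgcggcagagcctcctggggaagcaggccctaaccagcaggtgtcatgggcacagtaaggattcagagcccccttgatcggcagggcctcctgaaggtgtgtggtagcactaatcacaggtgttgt

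The 250 bases before the RefSeq start sites of Krt5 and Krt14 are shown beside each other because these genes encode the paired basal keratins and differed in their peaks. The Krt5 stretch, chr15:101712906-101713155 on the minus strand, was covered by a peak in replicates 1 and 2. The Krt14 stretch, chr11:100206031-100206280 on the minus strand, had 0 peaks in the 3 replicates. In GENCODE vM21 the Krt14 stretch lies inside the Krt14 gene (100203162 to 100207548), in none of its exons. The Krt5 stretch lies just outside its gene, so the 2 stretches are not placed alike in that annotation. Both are from the GRCm38.p6 table of RefSeq promoters, which matched 35 of the 49 keratin genes.
Krt5 promoter: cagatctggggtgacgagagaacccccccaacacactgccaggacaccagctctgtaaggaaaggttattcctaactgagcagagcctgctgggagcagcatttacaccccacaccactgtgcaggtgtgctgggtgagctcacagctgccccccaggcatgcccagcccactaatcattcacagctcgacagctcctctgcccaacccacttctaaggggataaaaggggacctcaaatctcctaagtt
Krt14 promoter: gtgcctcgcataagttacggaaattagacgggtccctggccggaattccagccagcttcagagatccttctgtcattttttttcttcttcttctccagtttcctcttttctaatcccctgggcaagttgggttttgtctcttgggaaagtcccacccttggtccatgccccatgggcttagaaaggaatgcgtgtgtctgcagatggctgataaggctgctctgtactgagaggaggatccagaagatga

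Exact matches were counted on both strands for AP-1 (TGANTCA), AP-2 (GCCNNNGGC) and grainyhead-like factors (AACCNGTT), motifs of factors active in surface epithelium. Neither promoter stretch holds one. The AP-1 letters occur in 6.75% of the 32851 tabulated promoters over the same 250 bases, the AP-2 letters in 13.7% and the grainyhead-like letters in 1.79%. In the 300 bp around the highest pileup, 0 of the 15 cluster peaks held the AP-1 letters, 1 the AP-2 letters and 0 the grainyhead-like letters. The match was at Krt7 in replicate 2. Over all peaks of replicate 1 the same windows held them in 8.42, 12.9 and 1.78% of cases, and over those of replicate 2 in 8.41, 14.0 and 1.66%. No capitals are used in the promoters, since they would mark a motif.

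**Figure D1:**
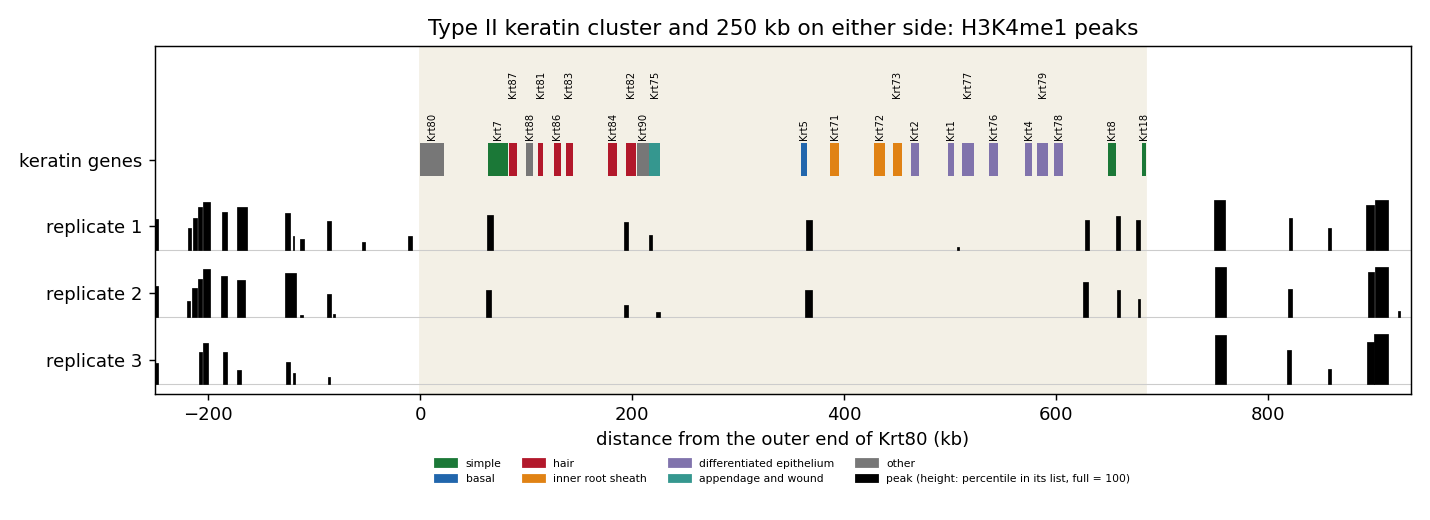
The type II cluster (shaded) with 250 kb on either side, plotted as distance in kb from the outer end of Krt80, with genes coloured by class and peaks of each replicate as black bars whose height is their percentile of total signal in the list. Replicates 1 and 2 have 8 and 7 peaks in the cluster, mostly at the same places, and replicate 3 has 0, while all 3 have peaks on both sides.

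Among the simple keratins, Krt7 had a peak over its start in replicates 1 and 2. Krt7 is expressed in ducts and other glandular linings. Its peak ran from 101410333 to 101416026 in replicate 1, with a total signal of 41960 pileup units at percentile 69.1 of the list. In replicate 2 it ran from 101409882 to 101414481, with 47496 units at percentile 53.2. Total signal is the fragment pileup summed over the bases of a peak and is not scaled to depth, so percentiles and multiples of the weakest peak of a list are used between replicates. The highest pileups were 774 bp apart, both in exons of Krt7, and the antisense gene Gm671 lies under both peaks. The nearest peak of replicate 3 was 149 kb from the gene.

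Krt8 and Krt18, the partners of the earliest epithelial filaments, are neighbours at the end of the type II cluster, although Krt18 is a type I keratin. Krt8 had a peak of 40731 units in replicate 1 (102004119 to 102008115, percentile 67.9) and of 48273 in replicate 2 (102004927 to 102008255, percentile 54.1). Only the peak of replicate 1 covered the Krt8 start site, and that of replicate 2 began 0.445 kb upstream of the gene. The highest pileup lay at -2.26 kb from the start site in replicate 1 and at -2.27 kb in replicate 2, in the sequence given above. For Krt18 the peak was upstream and did not reach the gene, at 1.89 kb in replicate 1 and 1.42 kb in replicate 2. It had 32785 units at percentile 58.5 in replicate 1 and 35359 at percentile 34.6 in replicate 2. Both simple keratins thus had a peak on their upstream side in the same replicates. In replicate 3 the nearest peak was 92.8 kb from Krt8 and 65.2 kb from Krt18.

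The remaining simple keratins, Krt19 and Krt20, are in the type I cluster. Krt19, a partner of Krt8 in many ducts, was 237, 245 and 263 kb from the nearest peak in replicates 1, 2 and 3. Krt20, a keratin of intestinal lining, was 277, 277 and 278 kb away. Both therefore stood in a stretch without peaks in all replicates.

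Of the basal keratins, only Krt5 had a peak. It ran from 101711569 to 101716994 in replicate 1, with 32925 units at percentile 58.7. In replicate 2 it ran from 101710118 to 101716916, with 47850 units at percentile 53.7. Both covered the start site and the upstream stretch shown above. Relative to the start site, the highest pileup was at 0.612 kb, in an exon, in replicate 1 and at -0.144 kb in replicate 2. In replicate 3 the nearest peak was 384 kb from Krt5. Krt14, which pairs with Krt5, was 178, 186 and 204 kb from the nearest peak in replicates 1, 2 and 3, and Krt15, another basal keratin, was 250, 258 and 276 kb away.

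Among the 13 hair keratins, Krt82 had a peak, at the end of the gene rather than its start. Krt82 encodes a chain of the hair cuticle. The peak had 30708 units in replicate 1 (101539975 to 101543410, percentile 55.3) and 30779 in replicate 2 (101539948 to 101543556, percentile 23.3). The highest pileup lay in an intron of Krt82 in replicate 1 and in intergenic DNA just past its end in replicate 2, 1012 bp apart. The other hair keratins of the type II cluster, Krt87, Krt81, Krt86, Krt83 and Krt84, had no peak within 5 kb, at distances of 7.13 to 59.0 kb in replicates 1 and 2. Those of the type I cluster were 280 to 387 kb from the nearest peak.

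The other classes had few peaks. Krt75, a keratin of the companion layer and nail, had a peak in replicates 1 and 2 but at different places. In replicate 1 it was at the 3′ end of the gene (101563659 to 101566103, percentile 29.8), also within 5 kb of Krt90, and in replicate 2 within the gene nearer its start (101569794 to 101573373, percentile 9.39). Krt1, the suprabasal keratin, and its neighbour Krt77 shared a single weak peak between them in replicate 1 (101853800 to 101856008), with 14995 units at percentile 5.18. Krt10, the partner of Krt1, had none, and its nearest peak was 234, 234 and 235 kb away in replicates 1, 2 and 3. Krt17, found early in hair placodes, and Krt16, a wound keratin, had none either, with Krt17 125, 133 and 150 kb from the nearest. All 7 inner root sheath keratins had 0 peaks. One further region lay within 5 kb of no keratin. It is the stretch between Krt78 and Krt8 whose sequence is given above, with 32947 units at percentile 58.8 in replicate 1 and 67972 at percentile 69.3 in replicate 2.

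Where overlapping peaks of replicates 1 and 2 were joined, the 15 peaks gave 9 regions. Both replicates had a peak in 6 of these, and the remaining 3 came from a single replicate. In all, 7 of 8 peaks of replicate 1 and 6 of 7 of replicate 2 lay within 5 kb of a keratin gene. A start site of a keratin gene was covered by 3 peaks of replicate 1 and 2 of replicate 2.

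A peak within 5 kb was found for 9 of 49 keratin genes in replicate 1 (18.4%), 6 in replicate 2 (12.2%) and 0 in replicate 3. Over all protein-coding genes the shares were 24.9, 22.6 and 19.6%. The mean was 10.2 ± 9.35% for keratins and 22.4 ± 2.67% for all genes (SD, n = 3). Leaving out replicate 1 gave a keratin mean of 6.12% and leaving out replicate 3 one of 15.3%. At least 1 replicate had a peak for 9 keratin genes (18.4%), against 28.8% of all genes. The keratin genes are short, with a median of 7225 bp against 17414 bp for all genes. Of the 10278 genes within their range of length, from 2812 to 22719 bp, 18.5, 17.2 and 10.9% had a peak, and 21.2% had one in at least 1 replicate. The keratin share of replicate 1 was thus level with that of genes of like length, and that of replicate 3 was at 0 beside 10.9%. Replicates 1 and 2 both had a peak at 6 keratin genes (12.2%), at 21.0% of all genes and at 15.5% of those of like length. All 6 lacked one in replicate 3. This pattern was thus seen at 12.2% of the keratin genes, 5.51% of all genes and 6.37% of those of like length. Of the 4573 genes with a peak in both replicates 1 and 2, 1199 lacked one in replicate 3. Among those of like length it was 655 of 1591. In all 3 replicates a peak was found for 0 of 49 keratins and 15.5% of all genes, or 9.11% of those of like length. Genes are not independent replicates here, neighbouring windows can share a peak, and no test was made across genes.

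Split by cluster, 0 of the 25 type I members had a peak in any replicate, where 29.2, 26.1 and 17.8% of the genes of chromosome 11 had one in replicates 1, 2 and 3. Of the 24 type II members, 9, 6 and 0 had a peak (37.5, 25.0 and 0%), where the genes of chromosome 15 stood at 31.1, 30.2 and 22.5%. The members of the type II cluster were thus near the level of their chromosome in replicates 1 and 2. The median distance to the nearest peak was 237, 245 and 263 kb for members of the type I cluster. For members of the type II cluster, Krt18 included, it was 16.0, 32.9 and 217 kb. Over all genes it was 66.0, 82.1 and 101 kb.

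By class, 3 of 5 simple keratins had a peak in replicate 1 and in replicate 2, against 1 of 3 basal and 1 of 13 hair keratins. The means over 3 replicates were 40 ± 34.6% for simple, 22.2 ± 19.2% for basal and 5.13 ± 4.44% for hair keratins (SD, n = 3). The spread is wide because replicate 3 was at 0 in each class. Without it the shares were 60.0, 33.3 and 7.69%. With 20 kb on either side of the gene in place of 5 kb, the mean was 15.4% for hair keratins and 29.7% for all genes (22.4% with 5 kb). The hair keratins gained because Krt84 and Krt87 lie 7.13 to 16.6 kb from a peak in replicates 1 and 2. The classes are not spread evenly over the clusters. Within the type II cluster 3 of 3 simple, 1 of 1 basal and 1 of 6 hair keratins had a peak in each of replicates 1 and 2, whereas in the type I cluster the counts were 0 of 2, 0 of 2 and 0 of 7. Within the type II cluster the simple and basal keratins were thus level and above the hair keratins with the 5 kb window, over very few genes.

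**Figure D2:**
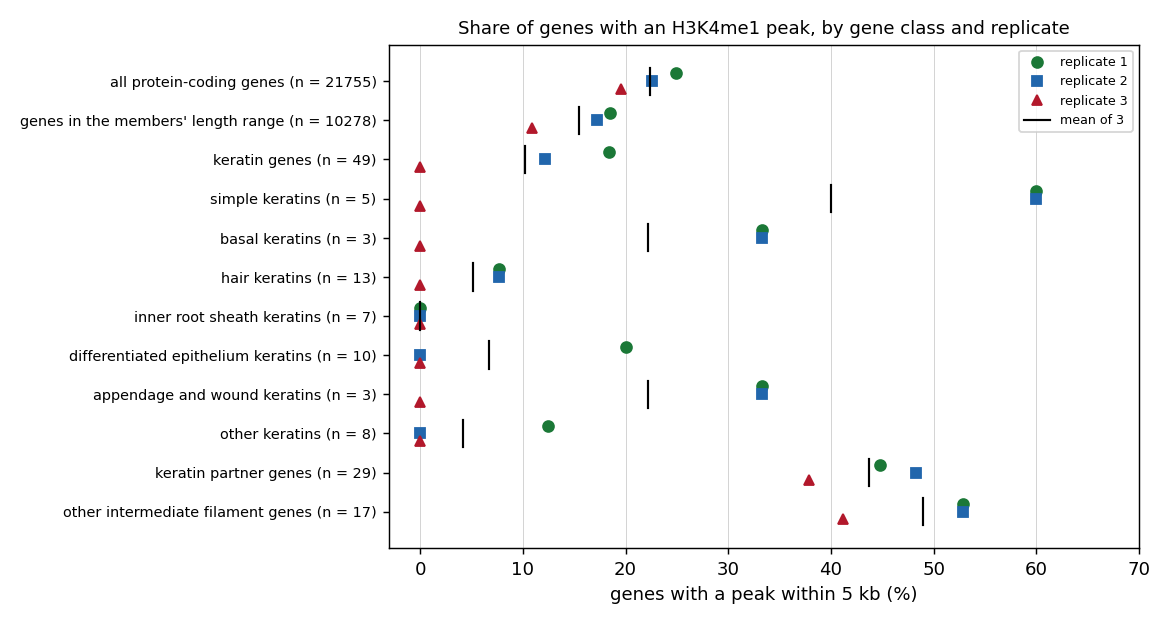
Share of genes with a peak within 5 kb (x axis, %) for all genes, the keratin classes and the lists of related genes, with a point for each replicate and a black line for the mean of the 3. Simple keratins stand at 60.0% in replicates 1 and 2, hair keratins at 7.69%, and every keratin class is at 0 in replicate 3.

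An unbroken stretch without peaks held the type I cluster. In replicate 1 it ran from 99151184 to 100385843 (1235 kb), in replicate 2 for 1243 kb and in replicate 3 for 1261 kb, with 72, 72 and 73 protein-coding genes inside. Of 16763 gaps between peaks in replicate 1, 370 were as long but only 16 held as many genes. On chromosome 11 it was the gap with the most genes in each replicate. The interval between the first and last keratin held 68 protein-coding genes, of which 43 were not members, among them 23 genes of keratin-associated proteins, which cross-link the filaments of the hair shaft. A peak was found at 0 of the 68 in any replicate.

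Peaks covered 0% of the type I cluster in each replicate. The 250 kb on either side were covered to 11.3, 11.7 and 7.58% in replicates 1, 2 and 3, and the whole of chromosome 11 to 3.72, 3.55 and 2.74%. The difference between cluster and flanks was -10.2 ± 2.28 percentage points (SD, n = 3), lower in 3 of 3 replicates (exact two-sided paired permutation p = 0.25, the smallest possible with 3 replicates). The flanking peaks were on the side of Krt222 in particular, where 10, 7 and 8 of them lay within 250 kb, at Ccr7 and beyond it. On the side of Krt42 there were 3, 2 and 1. The genes directly next to the cluster, Smarce1 on one side and Eif1 on the other, had 0 peaks in any replicate.

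**Figure D3:**
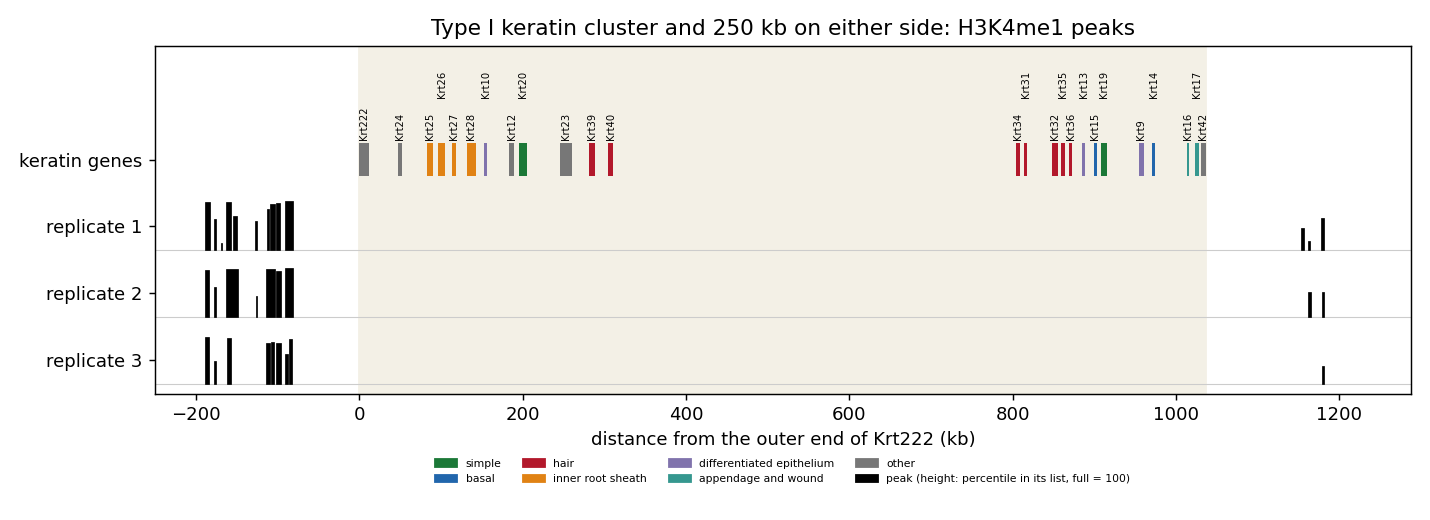
The type I cluster (shaded) with 250 kb on either side, plotted as distance in kb from the outer end of Krt222, with genes coloured by class and peaks of each replicate as black bars whose height is their percentile in the list. There are 0 peaks inside the cluster in any replicate, and 10, 7 and 8 on the Krt222 side.

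The type II cluster was covered to 4.38% in replicate 1, 4.20% in replicate 2 and 0% in replicate 3. Chromosome 15 as a whole was covered to 2.34, 2.24 and 2.03%, and the flanks of the cluster to 17.5, 17 and 12%. The cluster was below its flanks in 3 of 3 replicates, by a mean of -12.6 ± 0.536 percentage points (SD, n = 3; exact two-sided paired permutation p = 0.25, the smallest possible). In replicates 1 and 2 it was above the chromosome. In replicate 3 it lay in a gap of 835 kb between peaks (101262275 to 102097264) with 32 protein-coding genes, and 79 of 13977 gaps held as many. Beyond Krt18, Eif4b and Tns2 had a peak in all 3 replicates. On the side of Krt80, 6030408B16Rik and Atg101 had one in replicate 1 only.

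The peaks inside the type II cluster were of middling strength. Relative to the weakest listed peak, their total signal was 1.05 to 2.94 times as high in replicate 1 (median 2.3) and 1.09 to 2.80 times in replicate 2 (median 1.96). The medians over all peaks were 1.94 and 1.85. The peaks in the flanks reached 24.5 and 19.7 times. The cluster peaks together made up 0.0300% of the list's signal in replicate 1 and 0.0309% in replicate 2. The highest percentile in the cluster was 69.1 in replicate 1, at Krt7, and 69.3 in replicate 2, between Krt78 and Krt8.

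**Figure D4:**
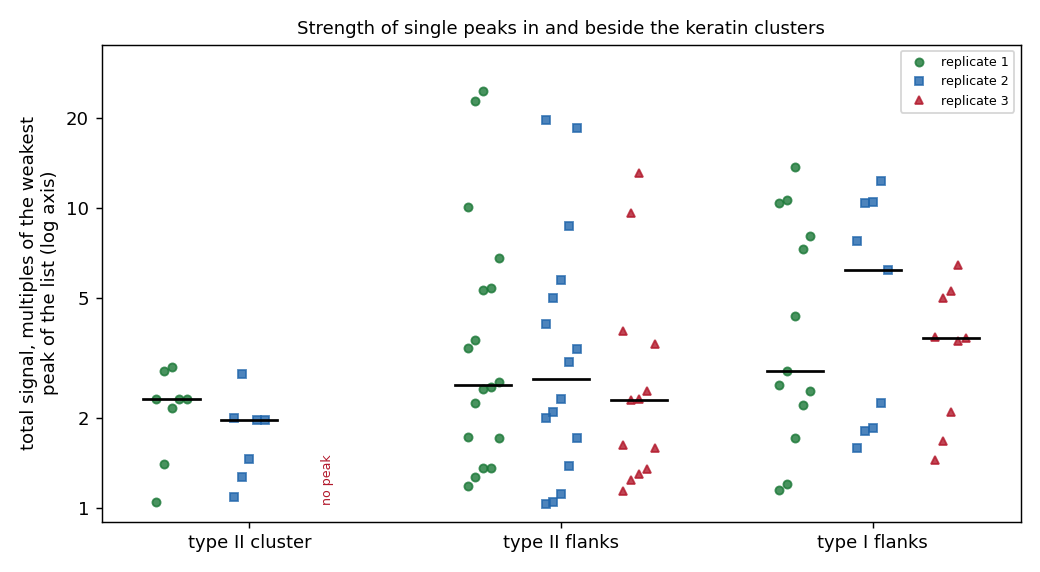
Total signal of single peaks as multiples of the weakest peak of the same list (y axis, log scale) in the type II cluster and in the 250 kb beside each cluster, with a point for each peak and a black line for the median of a replicate. Peaks in the type II cluster stay at or below 2.94 times, and those in its flanks reach 24.5 times.

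Replicate 3 had none of the keratin peaks. Of all peaks of replicate 1, 67.1% were overlapped by a peak of replicate 3, and of those in the percentile range of the keratin peaks 56.8%. The median GC content of the peaks was 45.7% in replicate 3, against 48.4 and 48.7% in replicates 1 and 2. The peaks of the type II cluster were GC-rich, at 51.6 to 55.2% in replicate 1 and 50.7 to 54.6% in replicate 2. Among peaks of replicate 1 in the same range of both percentile and GC content, 22.0% of 1822 were overlapped in replicate 3, against 0 of the 8 keratin peaks. For replicate 2 the share was 39.0% of 1707, against 0 of 7. In the other direction, replicate 2 overlapped 6 of the 8 peaks of replicate 1, beside 75.3% of those of like percentile and GC content. The part of GC content in the absence of keratin peaks from replicate 3 was not tested.

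The GC content of the keratin genes with 5 kb on either side had a median of 49.2%, against 44.7% for all genes. For the whole type I cluster it was 44.1% and for the type II cluster 48.3%, while chromosomes 11 and 15 had 43.8 and 42.0%. The flanks of the type I cluster had 48.1% and those of the type II cluster 49.6%. The part of GC content in the lack of peaks in the type I cluster was not tested.

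Genes whose products work with keratins were read from a separate list of 29, made up of desmosome and hemidesmosome parts, basement membrane chains, envelope proteins and epithelial regulators. A peak was found for 13, 14 and 11 of them in replicates 1, 2 and 3, which is 43.7 ± 5.27% on average (SD, n = 3) beside 22.4% of all genes. These genes are long, with a median of 41422 bp. Peaks in all replicates were found for 10 (34.5%), beside 15.5% of all genes. The highest by mean percentile were at Plec (96.2 ± 4.07), which ties filaments to hemidesmosomes, and at the regulators Grhl3 (94.3 ± 2.76), Tfap2a (93.5 ± 5.11) and Tfap2c (86.8 ± 4.54; SD, n = 3). Dst, Grhl2, the hemidesmosome integrin Itga6 and Trp63, a master regulator of stratified epithelium, also had one in each, at mean percentiles of 79.7, 65.5, 55.2 and 36.7. Jup, the plakoglobin gene of desmosomes, which lies beyond the Krt42 end of the type I cluster, had one in replicates 1 and 2. So did Dsp, another desmosome gene, at percentiles 35.1 and 20.9, and Cdh1, at 11.1 and 1.52. The desmosomal cadherins Dsg2, Dsg3, Dsc2 and Dsc3 and the plakophilins Pkp1, Pkp2 and Pkp3 had 0 peaks in any replicate. The same held for the hemidesmosome parts Itgb4 and Col17a1 and for Perp, Ppl, Evpl and Epcam. Of the regulators in the list, Trp63, Grhl2, Grhl3, Tfap2a, Tfap2c and Klf4 had a peak in replicate 3, where the keratins had none, and Klf5 and Ovol1 had none in any replicate. In replicate 3 the whole list stood at 37.9%, beside 19.6% of all genes and 10.9% of those of keratin length. Trp63, Grhl2, Grhl3 and Tfap2a are longer than the longest keratin gene (22719 bp), and Tfap2c and Klf4 are not.

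Intermediate filament genes outside the keratins were taken as another comparison. Of 17 such genes, replicate 1 had a peak at 9, replicate 2 at 9 and replicate 3 at 7. The average was 49.0 ± 6.79% (SD, n = 3), beside 22.4% of all genes. Those with a peak in all replicates were Iffo2, Nes, Lmna, Lmnb1, Iffo1, Bfsp2 and Vim (41.2%, beside 15.5% of all genes). Nes, the filament of progenitor cells, stood at a mean percentile of 90.9 ± 6.07, and Lmna, of the nuclear lamina, at 89.8 ± 3.46. Vim, the filament of mesenchymal cells, stood at 33.7 ± 3.28 (SD, n = 3). The neurofilament genes Nefl, Nefm and Nefh had 0 peaks. Keratins and these genes belong to the same protein superfamily. In replicate 3 the counts were 0 of 49 keratins and 7 of 17 of these genes (41.2%), beside 19.6% of all genes. The genes of the second group are longer, with a median of 16542 bp against 7225 bp.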

How the data were processed

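CUT&Tag for H3K4me1 was analysed in 3 whisker pads at embryonic day 12. Per the labels, the submitters' processing notes name Bowtie2 2.3, SAMtools 0.1.19, bedtools and SEACR 1.3, and mm10 as the build. The authors called peaks in each replicate with SEACR in stringent mode, without IgG, keeping the top 1% of signal blocks. Each deposited list gives the total signal and the highest signal of a peak, as whole-number fragment pileup with no scaling seen. The lists held 16788, 12969 and 13998 peaks. The study's methods give 1 common sequencing depth, but reads per library are not in the lists, and the reads behind each value are unknown, and a fixed share of blocks sets the number of peaks.

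Genes were taken from GENCODE vM21, on GRCm38 (mm10). A peak was assigned to a gene when at least 1 bp overlapped the gene body or the 5 kb on either side. Coordinates are 1-based. Percentiles are the share of the list at or below a peak in total signal. Cluster coverage was compared with the 250 kb on either side by an exact paired permutation test over replicates. Nothing says that the pads came from separate embryos, so the spread may be partly technical. Gene calls and coverage were tested on simulated data (100% recovered).

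The genes, classes and lists were chosen with earlier results of these data known. Simple keratins were Krt7, Krt8, Krt18, Krt19 and Krt20, basal keratins Krt5, Krt14 and Krt15, and hair keratins 13 genes from Krt31 to Krt40 and Krt81 to Krt87. Of the surface ectoderm markers, 8 of 10 were also in the list of keratin partners. The genes named were members with a peak, 10 well-known keratins whatever their value, the genes next to each cluster, and for each list at most 8 with a peak in all replicates. Genes named beside these, and the comparison by percentile and GC content, were chosen after their values were seen. The calculations used Python 3.11.15, numpy 2.4.6 and matplotlib 3.10.9.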

Additional observations from a re-analysis of the deposited data

How the results depend on the processing

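Other gene windows, stronger peaks only, the place of the highest pileup, wider cluster intervals, other classes for Krt17, Krt23 and Krt80 and leaving out each replicate gave 85 alternative values, of which 77 kept their direction or stayed within the replicate spread or within 1.5 times the count. The type I cluster had 0 peaks under each of its alternatives, which are among the 77, but no other outcome was possible. They used parts of the same lists or widened the interval by 5 kb, and the nearest peak lay 81.6 kb away. With 20 kb on either side of the gene, the share of hair keratins was 15.4% in place of 5.13%, beside 29.7% of all genes. With the stronger 50% of each list, keratin partner genes stood at 24.1% and other intermediate filament genes at 35.3%, beside 13.6% of all genes, and with the strongest 10000 peaks keratin partner genes stood at 31.0%, beside 17.2% of all genes. Fewer peaks entered in both. In whole peaks instead of 300 bp windows, which search more bases, 12 of 15 peaks held the AP-1 letters, 10 the AP-2 letters and 2 the grainyhead-like letters. Over all whole peaks of replicates 1 and 2 these letters were in 60.4 and 66.5%, 62.2 and 69.8%, and 22.2 and 26.0%. Leaving out each replicate moved the number of keratins with a peak in all that were left from 0 to 6, the latter without replicate 3. The mean share of keratin genes ranged from 6.12%, without replicate 1, to 15.3%, without replicate 3, and without replicate 3 the type II cluster held 15 peaks in the 2 lists left. Cluster and flanks were paired within each replicate in the main test. Between the sample groups that share replicate numbers, H3K4me1 and IgG, no paired analysis was possible because IgG was not analysed here.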

Other observations

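The small proline-rich and late cornified envelope genes on chromosome 3, which build the outer envelope of epidermal cells and lie side by side like the keratins, were looked at after the keratin values were known. Their 36 protein-coding genes, Sprr and Lce, span 803 kb (92215799 to 93019060). This stretch held 0 peaks in replicates 1, 2 and 3, and 0 of the 36 genes had a peak within 5 kb in any of them, beside 24.9, 22.6 and 19.6% of all protein-coding genes.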
